A study of Mus musculus with 32 samples.

Results

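Carboxylesterases are serine hydrolases that cleave ester, amide and thioester bonds in drugs and in stored lipids. Kidney mRNA for 7 of them was followed here: Ces1d, Ces1e, Ces1f, Ces1g, Ces2c, Ces2e and Ces2g. The members were chosen by name out of the 54532 genes of the count table, which holds 20 carboxylesterase genes in all. Ces2e was noted for its rise after cisplatin, so its change from Day 0 is given as a description, with no test. The other 6 members carry tests in every comparison.

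Cisplatin is a platinum drug that crosslinks DNA and injures the proximal tubule, which takes it up from the blood. Wild-type C57BL/6 mice aged 6 to 8 weeks from a commercial breeder received 1 intraperitoneal injection of cisplatin at 20 mg/kg, and whole kidney was taken for RNA sequencing at Day 2, Day 3 or Day 5. Healthy mice served as Day 0, and each of the 8 groups of sex and day held 4 mice, 32 libraries in all. The treatment label of the Day 0 males was NA, whereas that of the Day 0 females was cisplatin, and the study describes both as healthy. Each library was made from total RNA of whole kidney, so fewer cells of a type and less RNA per cell cannot be told apart in any value below.

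In mice the family has expanded into clusters of neighbouring genes. The enzymes of the Ces1 and Ces2 classes sit in the lumen of the endoplasmic reticulum, where they hydrolyse xenobiotic esters, triglycerides and cholesteryl esters. Liver holds the highest amounts of most of them, while in the kidney the proximal tubule is the main site. Ces1d is also known as triacylglycerol hydrolase, and Ces1g is a lipase of hepatocytes linked to lipoprotein secretion. Ces1e and Ces1f are further Ces1 hydrolases of liver and kidney. Ces2c, Ces2e and Ces2g belong to the class that prefers esters with a small acyl group and a large alcohol group, and several of its members are induced by xenobiotic receptors.

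All 7 members lie on chromosome 8 (GRCm38 coordinates, identical in the deposited table and in the GENCODE M21 annotation). The 4 Ces1 genes sit side by side on the minus strand between 93166068 and 93337308, namely Ces1d (ENSMUSG00000056973), Ces1e (ENSMUSG00000061959), Ces1f (ENSMUSG00000031725) and Ces1g (ENSMUSG00000057074). The 3 Ces2 genes sit on the plus strand between 104847068 and 104969537, namely Ces2c (ENSMUSG00000061825), Ces2e (ENSMUSG00000031886) and Ces2g (ENSMUSG00000031877). The 39 bases of each GENCODE M21 transcript around the codon of the catalytic serine are printed below, 5′ to 3′, because they show both the common catalytic site and the split into 2 classes. The capitals mark the serine codon, which lies in exon 5 of every member.

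Ces1d, chr8:93187752-93187790: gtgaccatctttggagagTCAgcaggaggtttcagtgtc

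Ces1e, chr8:93217508-93217546: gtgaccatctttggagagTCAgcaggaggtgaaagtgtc

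Ces1f, chr8:93269983-93270021: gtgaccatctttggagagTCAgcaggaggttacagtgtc

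Ces1g, chr8:93328387-93328425: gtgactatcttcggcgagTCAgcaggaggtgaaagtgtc

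Ces2c, chr8:104850756-104850794: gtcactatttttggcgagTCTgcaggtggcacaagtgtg

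Ces2e, chr8:104929803-104929841: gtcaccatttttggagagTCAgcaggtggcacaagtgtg

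Ces2g, chr8:104964981-104965019: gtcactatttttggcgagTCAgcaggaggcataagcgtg

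Over these 39 bases the Ces1 members differed at 1 base (Ces1d and Ces1f) to 6 bases (Ces1d and Ces1g). The Ces2 members differed at 3 bases (Ces2c and Ces2e) to 5 bases (Ces2e and Ces2g). Between the classes it was 7 bases (Ces1e and Ces2e) to 11 bases (such as Ces1d and Ces2c). Across the whole coding sequence the Ces1 members were 74.6% to 81.6% identical to each other, the Ces2 members 82.9% to 85.3%, and the classes 61.3% to 64.9% identical to one another. Every 150-base window of a member's transcript, the length of 1 read, was looked for in the transcripts of all other genes. No window of Ces1d, Ces1e, Ces1f, Ces1g, Ces2e or Ces2g was found in another gene. For Ces2c, 3.35% of the windows were also present in Ces2d-ps, a pseudogene of the cluster, or in Gm8798, so part of its reads could have been counted elsewhere. Ces1d is overlapped on its own strand by the gene model Gm45909.

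RefSeq promoter records (GRCm38.p6) were found for 5 of the 7 members, Ces1e, Ces1g, Ces2c, Ces2e and Ces2g. The 250 bases before the start of Ces2e, the gene that rose, are printed here for comparison with those of Ces2g, which lies further downstream in the same cluster.

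Ces2e, chr8:104926010-104926259, plus strand: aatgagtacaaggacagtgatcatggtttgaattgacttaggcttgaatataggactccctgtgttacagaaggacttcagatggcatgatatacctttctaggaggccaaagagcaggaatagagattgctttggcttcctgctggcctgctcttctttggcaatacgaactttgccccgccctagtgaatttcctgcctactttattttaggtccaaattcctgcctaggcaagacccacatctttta

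Ces2g, chr8:104961468-104961717, plus strand: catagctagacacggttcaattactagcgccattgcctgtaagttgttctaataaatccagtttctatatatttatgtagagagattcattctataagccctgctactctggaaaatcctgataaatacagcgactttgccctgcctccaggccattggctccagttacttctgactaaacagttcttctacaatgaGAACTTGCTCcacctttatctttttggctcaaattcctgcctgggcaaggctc

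The capitals in Ces2g mark 1 match to the decamer of which a full p53 response element holds a pair, and no second match was found in the window. Both strands were searched in the 250 bases, and the decamer was present in Ces2c and Ces2g among the members and in 7.13% of 32851 promoters of the same length. AGGTCA, the core element read by many nuclear receptors, was present in 14.0% of all promoters and in none of the 5 members. GTTAAT, part of the HNF1 site, was present in 6.43% of promoters and in no member, and TGACNNNGC, the core of the antioxidant response element, in 10.2% and in no member. TATAAA was present in 12.4% of promoters and in Ces1g. Each match is a run of letters, and an absent match says only that these letters were not in the window.

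The libraries held 16502107 to 35961325 counts. Several of them stood apart in ways that touch the members. Genes of the mitochondrial genome took 42.5% to 79.8% of the counts at Day 5 in males and 9.30% to 77.9% in females, against 4.49% to 24.0% in the other 24 libraries. The library labelled male Day 5 mouse 1 held 4153 Xist counts beside 387 Y-linked counts, whereas the other male Day 5 libraries held 59 to 260 Xist counts, which goes against its label. Among healthy mice, female Day 0 mouse 1 held 221 Y-linked counts and mice 2, 3 and 4 held 5, 44 and 66, against 0 in all 12 treated females, and male Day 0 mouse 4 held 242 Xist counts, against 0 to 50 in the other Day 0 males. Female Day 0 mouse 2 held hepatocyte transcripts (Alb 2926 FPKM, against 4.2 to 65.8 FPKM in the other Day 0 females), and female Day 3 mouse 2 held some too (Alb 112 FPKM, against 3.75 to 10.5 FPKM in the other Day 3 females). Proximal tubule markers (16 listed, 15 of them above 3 counts in every library) were expressed in every group, which fits the label of kidney. Of 6 listed enterocyte markers, 2 were above 3 counts in every library, and 1, Sis, stayed at or below 3 counts in every library. Every member exceeded 3 counts in all 32 libraries and passed the filter on low counts in all 13 comparisons. Levels are given below as FPKM, in which the count is divided by gene length and by 1 factor per library. That factor is not the count total, and it departs from it most in the Day 5 libraries rich in mitochondrial counts, so FPKM sets genes side by side within a library, while the fold changes come from the counts with TMM scaling.

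In healthy males Ces1f was the most abundant member at 194 ± 48.7 FPKM (SD, n = 4), followed by Ces1d at 134 ± 12.6 FPKM. Ces2c stood at 45.0 ± 29.3, Ces1e at 33.1 ± 3.77, Ces1g at 13.8 ± 9.52, Ces2e at 4.06 ± 1.22 and Ces2g at 1.30 ± 0.602 FPKM. In healthy females Ces1d led with 175 ± 34.5 FPKM, and Ces1f reached only 28.9 ± 11.3 FPKM. The order of the 8 groups by mean level rested on few clear steps: for each member the values of neighbouring groups in that order overlapped, except between female and male Day 0 for Ces1d and between male Day 3 and female Day 0 for Ces1f.

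**Figure D1:**
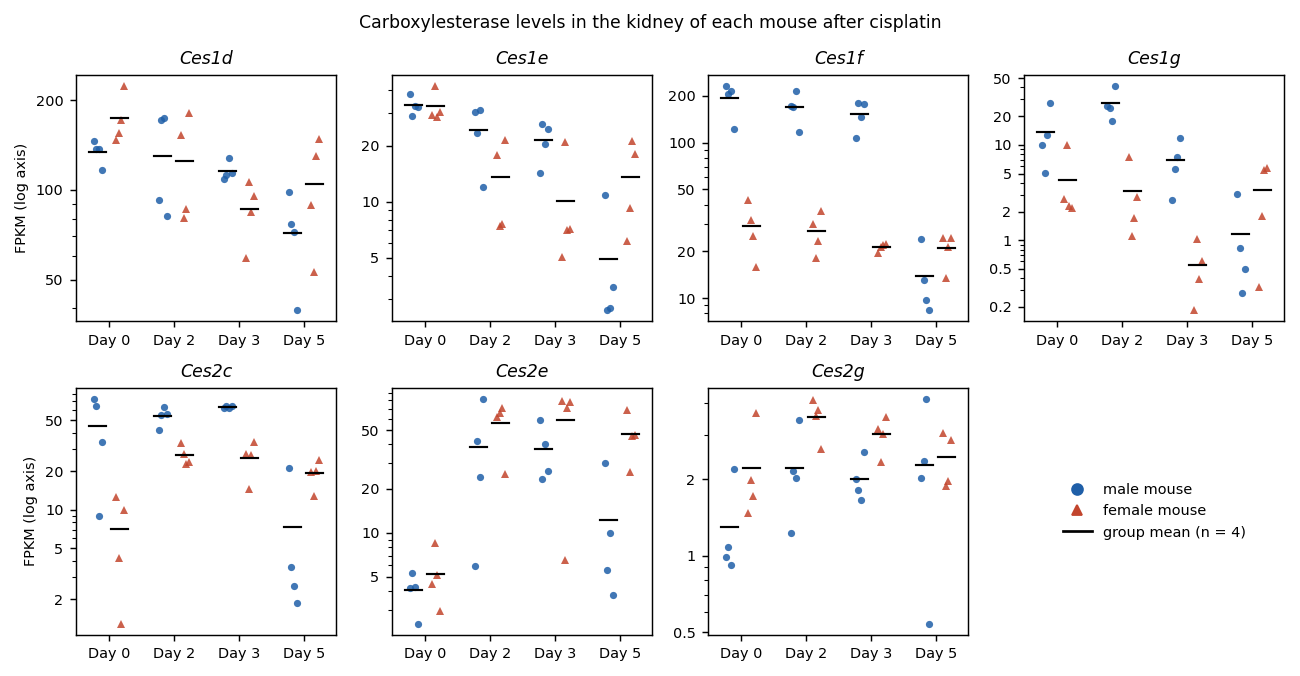
FPKM of each member (log axis) in each of 32 mice by day after cisplatin, with males as blue circles, females as red triangles and black lines for the mean of 4 mice. Ces2e lies between 2.41 and 8.53 FPKM in all Day 0 mice and mostly above that range afterwards, and Ces1f in males lies at 107 FPKM or more until Day 3 and at 24.0 FPKM or less at Day 5.

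Ces2e mRNA was higher after cisplatin in both sexes. In males its levels at Day 0 were 4.19, 5.35, 4.30 and 2.41 FPKM, in the order of mouse number. At Day 2 they were 5.91, 42.5, 24.1 and 81.6 FPKM, and at Day 3 they were 58.6, 23.3, 40.5 and 26.4 FPKM. All 4 males of Day 2 and of Day 3 lay above all 4 of Day 0, although male Day 2 mouse 1 did so by a narrow margin. At Day 5 the levels were 30, 5.54, 9.91 and 3.80 FPKM, so 3 of 4 lay above Day 0, and the highest belonged to the library labelled male Day 5 mouse 1.

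In females Ces2e stood at 4.45, 8.53, 5.13 and 2.92 FPKM at Day 0. It reached 61.1, 65.1, 71.3 and 25.0 FPKM at Day 2 and 78.9, 6.57, 71.1 and 77.6 FPKM at Day 3. Female Day 3 mouse 2 was the exception, within the Day 0 range. At Day 5 the females held 68.7, 26.0, 46.0 and 46.6 FPKM, all above Day 0.

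The fitted log2 fold change of Ces2e in males was 3.26 (SE 0.681) at Day 2, 3.20 (SE 0.357) at Day 3 and 1.60 (SE 0.592) at Day 5. In females it was 3.42 (SE 0.420), 3.48 (SE 0.702) and 3.16 (SE 0.391) on the same days. These correspond to 9.6-fold, 9.17-fold and 3.02-fold higher levels in males and 10.7-fold, 11.2-fold and 8.94-fold in females. Without the library labelled male Day 5 mouse 1 the male Day 5 value was 0.64. The male change minus the female change was −0.18 (SE 0.804) at Day 2, where its sign turned with the mouse left out (−0.89 to 0.18), −0.31 (SE 0.781) at Day 3 and −1.59 (SE 0.745) at Day 5, on the log2 scale. With 1 mouse left out it ran from −0.69 to −0.11 at Day 3 and from −2.56 to −1.27 at Day 5, where −2.56 was the value without the library labelled male Day 5 mouse 1.

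**Figure D2:**
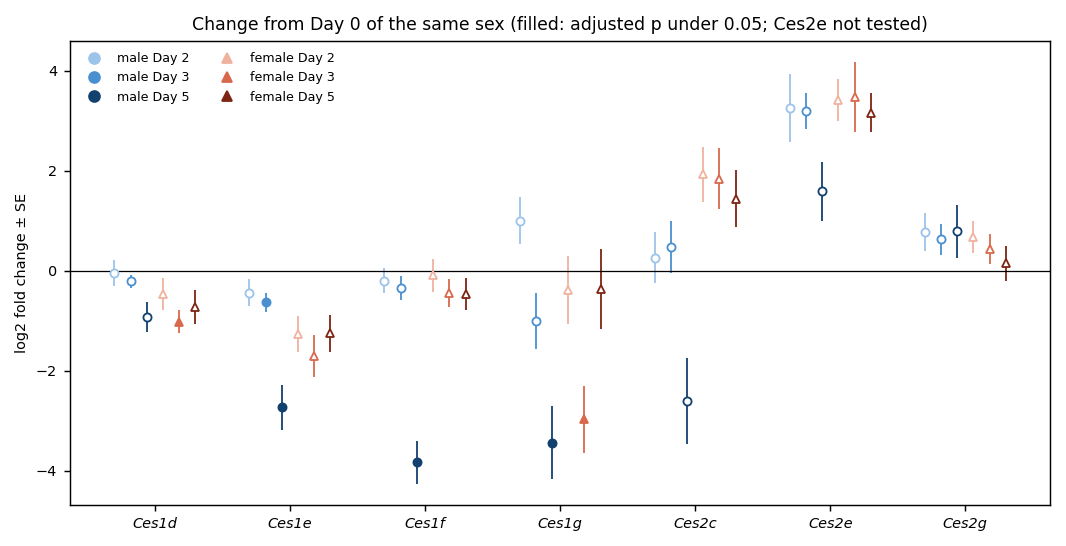
Log2 fold change ± SE (edgeR) of each member against Day 0 of the same sex, with males in blue circles, females in red triangles and darker shades for later days. Filled symbols have an adjusted p under 0.05 and Ces2e is shown without a test. Ces2e lies above 0 on every day, and the lowest points are those of Ces1f and Ces1g in males at Day 5.

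At Days 2 and 3 the libraries with the lowest Ces2e in the males of Day 2 and the females of Day 3 were also the lowest of their groups in Cdkn1a, the p53 target that encodes the cell cycle inhibitor p21. Cdkn1a stood at 2.87 FPKM in male Day 2 mouse 1 and at 6.14 FPKM in female Day 3 mouse 2, against 13.6 to 69.3 FPKM in the other Day 2 males and 79.7 to 96.6 FPKM in the other Day 3 females. At Day 5 low Ces2e did not go with Cdkn1a at the Day 0 level, since male mice 2, 3 and 4, with Ces2e at 5.54, 9.91 and 3.80 FPKM, held Cdkn1a at 12.4, 52.4 and 8.44 FPKM, above all Day 0 mice (2.19 to 5.30 FPKM). Over all 32 libraries the genes most like Ces2e in log2 CPM were Zmat3 (Pearson's r = 0.934), 1700007K13Rik (0.926) and Nqo1 (0.925). Zmat3 is a p53 target, and Nqo1 is a quinone reductase and a target of the antioxidant response. Cdkn1a was sixth with r = 0.919. These r values describe points that fall into Day 0 and treated libraries. Among the 8 Day 0 libraries alone r with Cdkn1a was 0.344. Among the 24 libraries of Days 2 to 5 it was 0.851, being 0.994 in the 12 females and 0.701 in the 12 males.

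**Figure D3:**
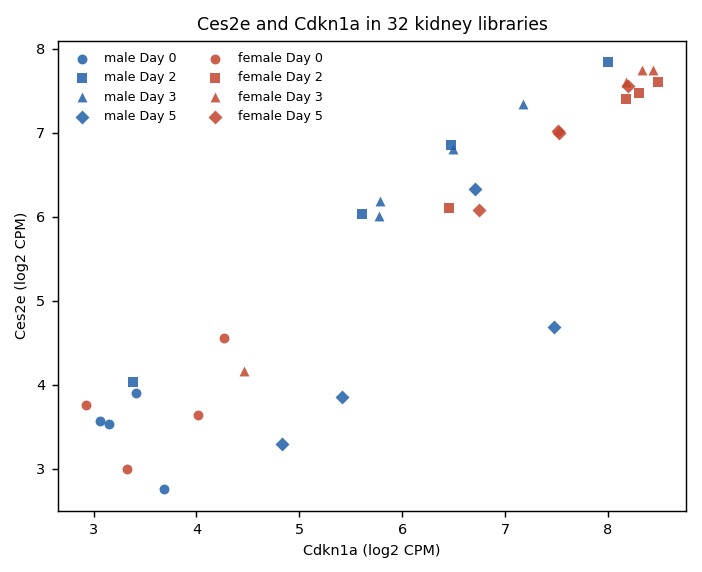
Ces2e against Cdkn1a, both in log2 CPM, in each of 32 libraries, with color for sex and symbol shape for day. The Day 0 libraries lie at the lower left, close to male Day 2 mouse 1 and female Day 3 mouse 2, and the other Day 2 and Day 3 libraries further up and to the right (r = 0.919 over all 32), while male Day 5 mice 2 and 4 are in the Day 0 range for Ces2e and above it for Cdkn1a, and mouse 3 has high Cdkn1a (7.48) with low Ces2e (4.68).

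Of 6 p53 targets listed as a sign of cisplatin exposure, 3 rose in males at Day 2, 4 at Day 3 and 4 at Day 5, against 3.16%, 24.5% and 19.2% of all genes called in either direction. In females 5, 4 and 5 rose, against 1.93%, 5.54% and 0.258%, and none fell on any day in either sex. Bax, which promotes apoptosis, did not pass on any day, with −0.37 in males at Day 2 and 0.012 in females at Day 2. Ccng1, a p53-induced cyclin, rose by a log2 fold change of 2.51 (adjusted p = 0.0118, edgeR) in females at Day 2 and 1.78 (adjusted p = 0.000855) in males at Day 3. Ephx1, the microsomal epoxide hydrolase that shares many xenobiotic inducers with the family, rose in males at Day 3 (1.82, adjusted p = 0.00826) and Day 5 (2.56, adjusted p = 0.00371) and in females at Day 2 (3.04, adjusted p = 0.0114).

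Ces1e, Ces1f and Ces1g fell in males at Day 5, the opposite direction to Ces2e. Of the 6 members with a test, none passed in males at Day 2, where 3.16% of all 16051 genes passed (edgeR quasi-likelihood test, Benjamini-Hochberg over all genes); at an unadjusted p under 0.05 there were also 0, against 29% of all genes, and by DESeq2 0, against 20%. At Day 3 only Ces1e fell, against 24.5% of all genes called. At Day 5 Ces1e, Ces1f and Ces1g fell, 3 of 6 members, against 19.2% of all genes called.

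Ces1f had the lowest fitted change in males at Day 5, followed by Ces1g, and the errors of the pair overlap. The levels of Ces1f were 232, 206, 216 and 123 FPKM at Day 0, 173, 170, 214 and 117 FPKM at Day 2, and 107, 179, 145 and 177 FPKM at Day 3. At Day 5 they were 24.0, 13.1, 9.73 and 8.36 FPKM, with every mouse far below every mouse of the earlier days. The log2 fold change at Day 5 was −3.83 (SE 0.425, adjusted p = 0.00381), 14.2-fold lower than at Day 0, and it passed whichever mouse was left out (−4.24 to −3.65).

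Ces1e in males went from 38.1, 29, 32.6 and 32.6 FPKM at Day 0 to 14.4, 26.2, 20.6 and 24.7 FPKM at Day 3. At Day 5 it stood at 10.9, 2.60, 2.69 and 3.46 FPKM. Neither day overlapped with Day 0. The fall at Day 3 was small (−0.62, SE 0.190, adjusted p = 0.0442) and passed without male Day 0 mouse 3 alone, whereas leaving out any of the other 7 mice gave adjusted p values of 0.0544 to 0.119. At Day 5 the log2 fold change was −2.73 (SE 0.456, adjusted p = 0.00904).

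Ces1g in males was 10, 5.03, 12.8 and 27.2 FPKM at Day 0 and 25.4, 24.1, 18 and 41.7 FPKM at Day 2. It stood at 2.64, 5.59, 7.54 and 11.9 FPKM at Day 3 and at 3.02, 0.839, 0.282 and 0.497 FPKM at Day 5, where mouse 3 held 4 counts. The Day 2 values were the highest of any group, but they overlapped with Day 0 and did not pass (1.0, SE 0.471, adjusted p = 0.192); without male Day 0 mouse 4 the value was 1.58 (adjusted p = 0.0380). The fall at Day 5 was −3.43 (SE 0.726, adjusted p = 0.0153) and did not pass without male Day 5 mouse 2 (−3.30, adjusted p = 0.0563) or mouse 4 (−3.20, adjusted p = 0.0508). Leaving out each mouse in turn gave −4.67 to −2.90.

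Ces1d, second to Ces1f in healthy males, went from 147, 137, 137 and 117 FPKM at Day 0 to 98.3, 77.1, 72.2 and 39.4 FPKM at Day 5. The groups did not overlap, yet the log2 fold change of −0.92 (SE 0.296) had an adjusted p of 0.0544. Ces2c stood at 72.9, 64.1, 8.95 and 33.9 FPKM in Day 0 males, with mouse 3 far below the rest, and at 21.3, 3.55, 2.56 and 1.87 FPKM at Day 5 (−2.60, SE 0.868, adjusted p = 0.0622). Without the library labelled male Day 5 mouse 1 both passed, Ces1d with −1.11 (adjusted p = 0.0192) and Ces2c with −4.10 (adjusted p = 0.00420). That made 5 of 6 members, against 26% of all genes called in that fit, and Ces2c also passed without male Day 0 mouse 3 (−2.94, adjusted p = 0.0423).

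Ces2g, the member with the lowest mean over the 32 libraries (2.37 FPKM), did not pass on any day in either sex. In males it stood at 0.991, 1.09, 0.920 and 2.20 FPKM at Day 0 and 2.01, 1.81, 1.66 and 2.56 FPKM at Day 3 (0.63, SE 0.310, adjusted p = 0.160). Without male Day 0 mouse 4, the highest of its group, the Day 3 value was 1.01 (adjusted p = 0.0103).

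Markers of the proximal tubule were lower in the same male Day 5 libraries. The summed level of 15 proximal tubule markers, leaving out the very abundant Kap, was 4258 to 5451 FPKM in males at Day 0 and 413 to 2667 FPKM at Day 5, where 7 of the 16 listed markers fell and none rose. In this comparison 19.2% of all genes were called in either direction, the share to set beside each list in this paragraph. The phosphate transporter Slc34a1 went from 1037 to 1231 FPKM down to 40.9 to 403 FPKM. Markers of the adrenal cortex were higher, 4 of 5 listed, with a summed level of 12.6 to 61.3 FPKM at Day 5 against 0.180 to 5.59 FPKM at Day 0. Of 7 distal nephron markers 2 were higher and none lower, and adipocyte markers summed to 727 to 4183 FPKM against 362 to 2053 FPKM at Day 0, with none of 10 passing. The part of these shifts, and of the mitochondrial share, in the members' values was not tested.

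In females Ces1d and Ces1g fell at Day 3. None of the 6 members passed at Day 2, where 1.93% of all genes did. An unadjusted p under 0.05 was found for 2 members, against 25.3% of all genes, and 2 passed by DESeq2, against 13% of all genes. The 2 calls of Day 3 were 2 of 6 members, against 5.54% of all genes called. At Day 5 none passed, against 0.258% of all genes. Here 2 had an unadjusted p under 0.05, against 15.7% of all genes, and 1 passed by DESeq2, against 4.82%.

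Ces1d in females was 147, 156, 172 and 224 FPKM at Day 0 and 59.2, 106, 84.2 and 95.6 FPKM at Day 3, with no overlap. The log2 fold change was −1.02 (SE 0.232, adjusted p = 0.0479). Ces1g went from 2.74, 9.90, 2.31 and 2.17 FPKM to 0.185, 1.02, 0.389 and 0.605 FPKM (−2.97, SE 0.677, adjusted p = 0.0479), also without overlap. Its highest Day 0 value came from female Day 0 mouse 2, the library with hepatocyte transcripts, and without that library the value was −2.13 (adjusted p = 0.137). Both calls were lost without any single mouse other than female Day 0 mouse 4, with adjusted p values of 0.0564 to 0.168 for Ces1d and 0.0513 to 0.168 for Ces1g.

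Ces1e in females was 29.4, 42.1, 28.6 and 30.4 FPKM at Day 0, 17.7, 7.38, 7.63 and 21.4 FPKM at Day 2 and 5.04, 21.1, 7.01 and 7.10 FPKM at Day 3. At Day 5 it was 6.16, 9.25, 21.2 and 18 FPKM. All treated females lay below all Day 0 females, but no day passed, with −1.26 (adjusted p = 0.0741) at Day 2, −1.71 (adjusted p = 0.0505) at Day 3 and −1.25 (adjusted p = 0.192) at Day 5. Ces1e passed at Day 3 without female Day 3 mouse 2 (−2.35, adjusted p = 0.00519), the mouse with low Ces2e and Cdkn1a, and it passed at Day 2 (−1.29, adjusted p = 0.0298) and Day 3 (−1.74, adjusted p = 0.0217) without female Day 0 mouse 4. The summed level of 15 proximal tubule markers was 4002 to 6094 FPKM in females at Day 0 and 2534 to 3588 FPKM at Day 3. The summed level of the adrenal cortex markers was 9.15 to 773 FPKM in females at Day 3 and 207 to 512 FPKM at Day 5, against 0.720 to 127 FPKM at Day 0, with none of the 5 passing on either day. In females at Day 3, 2 of 16 proximal tubule, 3 of 10 adipocyte, 1 of 6 macrophage and 1 of 7 distal nephron markers were lower, and 3 of 8 tubule injury markers were higher. Of all genes, 5.54% were called in either direction in that comparison. The part of these lists in these values was not tested.

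Ces2c in females stood at 12.6, 4.17, 1.30 and 10 FPKM at Day 0 and at 33.2, 27.4, 22.9 and 23.4 FPKM at Day 2. At Day 3 it was 27.2, 14.5, 26.6 and 33.6 FPKM, and at Day 5 it was 19.8, 12.8, 19.9 and 24.4 FPKM. All 12 treated females lay above all 4 of Day 0, and no day passed, with 1.93 (SE 0.559, adjusted p = 0.0771), 1.85 (SE 0.604, adjusted p = 0.0835) and 1.44 (SE 0.570, adjusted p = 0.270). The Day 2 value was 1.60 (adjusted p = 0.0486) without female Day 0 mouse 3 and 2.14 (adjusted p = 0.0438) without mouse 4. Ces1f in females stood at 42.8, 31.9, 25.1 and 15.9 FPKM at Day 0 and 24.4, 13.4, 21.4 and 24.5 FPKM at Day 5 (−0.46, SE 0.318, adjusted p = 0.493), although at Day 3 it was −0.65 (adjusted p = 0.0303) without female Day 0 mouse 4. Without that mouse Ces2g was higher, by 1.04 (adjusted p = 0.0126) at Day 2 and by 0.80 (adjusted p = 0.0179) at Day 3, against 0.68 (adjusted p = 0.204) and 0.44 (adjusted p = 0.340) with all mice.

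Males and females differed in Ces1f on each day until Day 3, and in Ces1g and Ces2c at Day 2 and Day 3. At Day 0 Ces1f was higher in males, 1 of 7 members, against 0.449% of all genes called. The 4 males lay between 123 and 232 FPKM and the 4 females between 15.9 and 42.8 FPKM, a log2 difference of 2.76 (SE 0.366, adjusted p = 0.0230). This call was lost without male Day 0 mouse 1, 2 or 3 or female Day 0 mouse 2 or 3, with adjusted p values of 0.0555 to 0.118 and differences of 2.65 to 2.79. Female Day 0 mouse 1, with 221 Y-linked counts, was the highest Day 0 female in Ces1f at 42.8 FPKM and in Ces2c at 12.6 FPKM. Ces2c differed by about as much (2.69, SE 0.789), but male Day 0 mouse 3 lay inside the female range and the adjusted p was 0.296. No single mouse left out gave a call, and without male Day 0 mouse 3 the difference was 3.03. With mouse number as a block Ces2c passed (2.75, adjusted p = 0.0175, edgeR), where 1.31% of all genes were called.

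**Figure D4:**
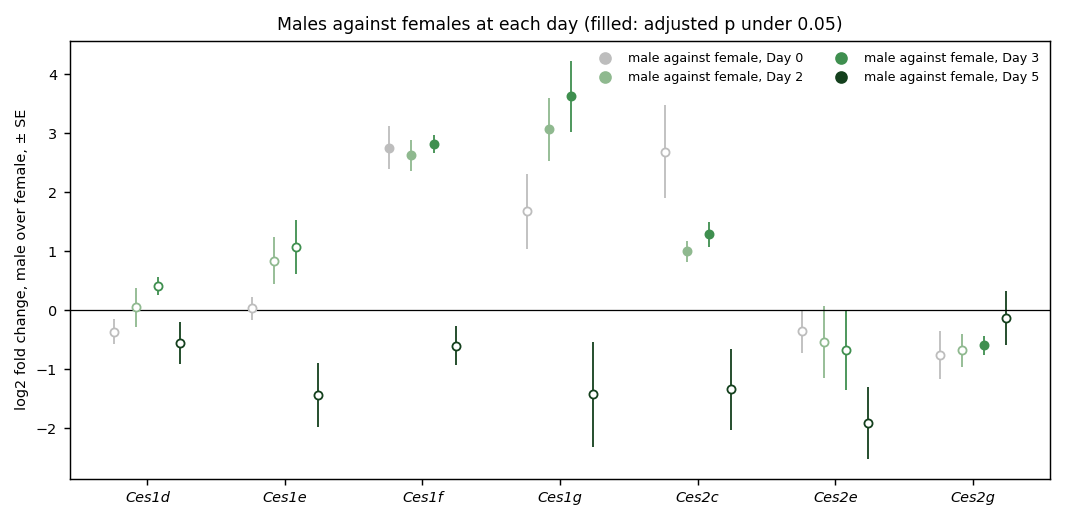
Log2 fold change ± SE (edgeR) of males over females for each member on each day, in darker shades for later days, with filled symbols for an adjusted p under 0.05. Ces1f lies near 2.6 to 2.8 until Day 3 and at −0.60 at Day 5.

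At Day 2, 3 of 7 members were higher in males, Ces1f, Ces1g and Ces2c, against 1.47% of all genes called. Ces1f differed by 2.63 (SE 0.264, adjusted p = 0.000715). Ces1g was 18 to 41.7 FPKM in males and 7.39, 1.11, 1.69 and 2.82 FPKM in females (3.07, SE 0.537, adjusted p = 0.0215). Ces2c was 41.8 to 63.0 FPKM in males and 22.9 to 33.2 FPKM in females (1.0, SE 0.175, adjusted p = 0.0215). The values of these 3 did not overlap between the sexes, which describes genes already called from the same values. The share of all genes without overlap was not counted. The call of Ces1g was lost without male Day 2 mouse 1 or female Day 2 mouse 2, 3 or 4 (adjusted p = 0.0538 to 0.0799), and that of Ces2c without male Day 2 mouse 2 or 3 or female Day 2 mouse 2, 3 or 4 (adjusted p = 0.0621 to 0.0915). Among markers, 1 of 5 adrenal cortex, 1 of 8 tested hepatocyte and 1 of 16 proximal tubule markers were higher in males and none lower. Male Day 2 mouse 2 stood apart, with adrenal cortex markers summing to 173 FPKM, against 3.22 to 7.59 FPKM in the other Day 2 males. Its Alb was 17.5 FPKM, against 0.622 to 2.64 FPKM. The part of these markers in the members' values was not tested.

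At Day 3, 4 of 7 members passed, against 21.3% of all genes called. Ces1f (2.82, SE 0.160, adjusted p = 8.16e-06), Ces1g (3.63, SE 0.607, adjusted p = 0.00698) and Ces2c (1.29, SE 0.217, adjusted p = 0.00557) were higher in males, and these calls held whichever mouse was left out. Ces2c was very even in Day 3 males, at 61.9, 63.9, 61.8 and 64.3 FPKM. Ces2g was lower in males (−0.60, SE 0.163, adjusted p = 0.0285), a call lost on leaving out any of 6 of the 8 mice, all but male Day 3 mouse 4 and female Day 3 mouse 2 (adjusted p = 0.0585 to 0.0873). Without female Day 3 mouse 2, Ces1d (0.53, adjusted p = 0.0227) and Ces1e (1.73, adjusted p = 0.00174) were also higher in males. Among the proximal tubule markers 8 of 16 were higher in males at Day 3 and none was lower, while 7 of 10 adipocyte, 5 of 7 distal nephron, 4 of 10 tested hepatocyte and 3 of 8 tubule injury markers were lower in males. The part of these lists in the members' values was not tested.

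At Day 5 no member passed between the sexes, where 0.276% of all genes did. An unadjusted p under 0.05 was found for 2 members, against 20.3% of all genes, and 1 passed by DESeq2, against 6.95%. Without the library labelled male Day 5 mouse 1, 4 of 7 members were lower in males, against 17% of all genes called in that fit, namely Ces1e (−2.20, adjusted p = 0.00597), Ces1f (−0.97, adjusted p = 0.0192), Ces2c (−2.82, adjusted p = 0.000319) and Ces2e (−2.83, adjusted p = 0.00110). With all mice, 4 of 5 adrenal cortex markers were lower in males, while 1 of 16 proximal tubule markers was higher and none lower. In male Day 5 mice 2, 3 and 4 the 15 proximal tubule markers without Kap summed to 413 to 795 FPKM. The Day 5 females held 1884 to 4167 FPKM. Mitochondrial genes took 78.9% to 79.8% of counts in those males and 9.30% to 77.9% in the females. The part of these differences in the members' values was not tested. In the library labelled male Day 5 mouse 1 Ces2c stood at 21.3 FPKM, inside the female Day 5 range of 12.8 to 24.4 FPKM, whereas the other 3 males held 1.87 to 3.55 FPKM. Ces2e did not pass between the sexes with all mice on any day, with male minus female log2 differences of −0.36 (adjusted p = 0.908) at Day 0, −0.54 (adjusted p = 0.726) at Day 2, −0.67 (adjusted p = 0.512) at Day 3 and −1.91 (adjusted p = 0.160) at Day 5.

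Whether the sexes responded differently was tested as the male change minus the female change. At Day 2 no member passed and 0% of all genes were called; 0 members had an unadjusted p under 0.05, 738 genes did, and DESeq2 called 0 members and 21 genes. At Day 3 no member passed, against 0.0114% of all genes; 3 members had an unadjusted p under 0.05, against 7.11% of all genes, and DESeq2 called 0, against 0.521%. At Day 5 Ces1f passed, 1 of 6, against 0.243% of all genes called, with a difference of −3.39 (SE 0.532, adjusted p = 0.0210).

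The change of Ces1f at Day 5 was −3.83 in males and −0.46 in females. It was lost without any of 9 of the 16 mice, which were male Day 0 mice 1 and 2, female Day 0 mouse 2, male Day 5 mice 2, 3 and 4 and female Day 5 mice 1, 3 and 4 (adjusted p = 0.0509 to 0.0801), while the difference itself stayed between −3.81 and −3.19. Ces2c had a larger difference (−4.07, SE 1.14) with an adjusted p of 0.118. Without the library labelled male Day 5 mouse 1, Ces2c (−5.58, adjusted p = 0.00584) and Ces1e (−2.31, adjusted p = 0.00791) passed too, with 6.74% of all genes called in that fit. With female Day 0 mouse 2 left out as well, a choice made after the data were seen, 4 of 6 members passed, Ces1e, Ces1f, Ces1g and Ces2c, against 5.1% of all genes in that fit.

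The genes most like the other members were ranked by Pearson's r of log2 CPM over the 32 libraries. Ces1e was closest to Nat8f1 (0.949), Slc34a1 (0.941) and Apeh (0.941), and Ces1d to Sqor (0.846), Slc34a1 (0.833) and Nepn (0.833). Ces1f was closest to Galns (0.972), Ldhd (0.955) and Mogat1 (0.954). Ces1g was closest to Nat8f6 (0.83), Akr1c21 (0.827) and Wipi2 (0.817), and Ces2c to Dync1li1 (0.951) and Acox3 (0.947). Ces2g had looser neighbours in Myrf (0.783), Gm3776 (0.775) and Rai2 (0.771). All these points share library, sex and day, so each r includes the differences between groups. Between members, r was highest for Ces1d with Ces1e (0.803) and for Ces1f with Ces1g (0.778). Ces2e went with Ces2g (0.591) and Ces2c (0.463) more than with any Ces1 member (−0.306 to −0.0826). The classes did not separate throughout, since Ces2c was closest to Ces1f (0.687), with 0.467 for Ces1g and 0.161 for Ces2g.

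Added over all 20 carboxylesterase genes, the transcripts came to 431 ± 71.3 FPKM in healthy males and 303 ± 88.8 FPKM in healthy females (SD, n = 4). In males the sum was 452 ± 74.9 at Day 2, 404 ± 29.8 at Day 3 and 115 ± 56.5 FPKM at Day 5, where every mouse (58.7 to 194 FPKM) lay below every Day 0 male (342 to 512 FPKM). In females it was 265 ± 49.5, 214 ± 28.7 and 218 ± 66.6 FPKM on those days. The make-up shifted as well. Ces2e was 0.933% of the male sum at Day 0 and 9.48% at Day 3, and 1.72% of the female sum at Day 0 and 26.4% at Day 3. Ces1f was 44.6% of the male sum at Day 0 and 12.1% at Day 5, and 10.2% and 9.82% of the female sum on those days.

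**Figure D5:**
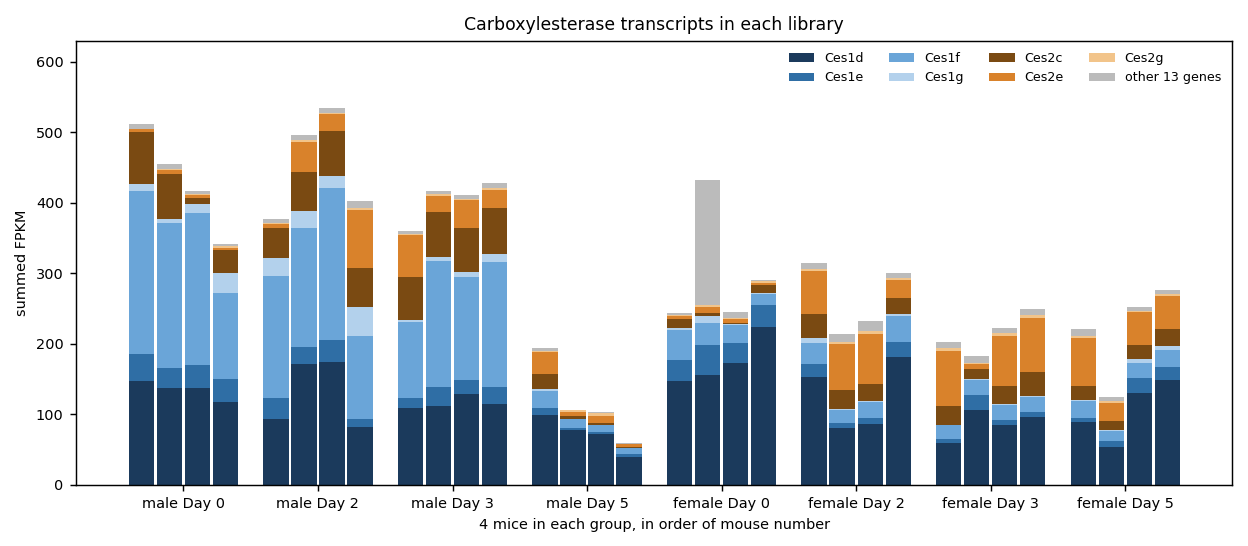
Summed FPKM of 20 carboxylesterase genes in each of 32 libraries, stacked by gene (blue for Ces1 members, brown to orange for Ces2 members, grey for the other 13 genes). Ces1f makes up the largest part in most males until Day 3, Ces2e widens after Day 0, and the grey part is large in female Day 0 mouse 2, at 41.1% of the sum.

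Of the 13 other carboxylesterase genes, 3 to 5 could be tested in each comparison of days. Ces2b, which shares 92.1% coding identity with Ces2c, rose in females at Day 2 from 2.31, 1.95, 2.18 and 1.01 FPKM to 6.48, 10.1, 14.0 and 6.98 FPKM (2.35, SE 0.338, adjusted p = 0.0129), and it rose at Day 3 as well (1.84, adjusted p = 0.0467). In males it did not pass on any day (0.83, adjusted p = 0.295 at Day 2). Ces2h fell in males at Day 5 (−2.84, SE 0.724, adjusted p = 0.0268) and was higher in males at Day 2 (2.62, adjusted p = 0.0292) and Day 3 (2.04, adjusted p = 0.0169), at levels of at most 2.07 FPKM. Ces1c and Ces3a reached 116 and 35.4 FPKM in female Day 0 mouse 2, and Ces1c stayed at 4.72 FPKM or less in the other 31 libraries.

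Of 24 other listed hydrolases of lipids and esters, none rose and 1 fell in males at Day 2, 2 rose and 3 fell at Day 3, and 2 rose and 5 fell at Day 5. In females 1 rose and 1 fell at Day 2, 1 rose and 3 fell at Day 3, and 1 rose and none fell at Day 5. Both directions together, this was 1, 5 and 7 of 24 in males on those days, where 3.16%, 24.5% and 19.2% of all genes were called. In females it was 2, 4 and 1 of 24, where 1.93%, 5.54% and 0.258% were. Ephx2, the soluble epoxide hydrolase, fell in males on each day, by a log2 fold change of −0.87 (adjusted p = 0.0408), −1.05 (adjusted p = 0.00569) and −2.41 (adjusted p = 0.00435). Esd, the esterase D of glutathione metabolism, fell in males at Day 5 (−1.14, adjusted p = 0.0396). Pnpla2, the main triglyceride lipase of lipid droplets, did not pass against Day 0 in either sex.

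Of 10 genes of lipid droplets and fat synthesis, 2 fell in males at Day 3, against 24.5% of all genes, namely Scd1 (−3.10, adjusted p = 0.0142), a fatty acid desaturase, and Fasn (−2.89, adjusted p = 0.0353), the fatty acid synthase. In males at Day 5 Cd36, a fatty acid transporter, fell (−1.18, adjusted p = 0.0291), and in females at Day 3 Dgat1, an enzyme of triglyceride synthesis, fell (−0.82, adjusted p = 0.0489). None of the 10 rose on any day, and none passed in males at Day 2 or in females at Day 2 or Day 5. Markers of fat tissue were lower in the same libraries, with 4 of 10 adipocyte markers lower and none higher in males at Day 3, a summed level of 191 to 272 FPKM at Day 3 against 362 to 2053 FPKM at Day 0, and their part in the fall was not tested.

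Among 12 tested regulators of carboxylesterase genes or of the proximal tubule, 1 rose in males at Day 2, where 3.16% of all genes were called, and 2 rose and 1 fell at Day 3, where 24.5% were. In females 1 rose at Day 2 (1.93% of all genes), 1 rose and 1 fell at Day 3 (5.54%), and none passed at Day 5 (0.258%). The risers were Ppara, a receptor for fatty acids, in males at Day 2 (1.78, adjusted p = 0.0387) and Day 3 (1.71, adjusted p = 0.0132), and Nfe2l2, the factor of the antioxidant response, in males at Day 3 (0.56, adjusted p = 0.0293) and in females at Day 2 (0.93, adjusted p = 0.0499) and Day 3 (1.06, adjusted p = 0.0465). In males at Day 5, 3 of 12 fell and none rose, against 19.2% of all genes called. Nr1h4, the bile acid receptor FXR, fell by 1.84 on the log2 scale (adjusted p = 0.0253) and Rxra, its partner, by 1.0 (adjusted p = 0.0145). Hnf4a, which maintains proximal tubule identity, had a value of −1.56 (adjusted p = 0.0698).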

How the data were processed

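Total RNA of kidney was sequenced by the study as paired-end reads of 150 bases. The deposited table holds raw read counts per gene, which the authors obtained by aligning to GRCm38 as their methods state, while the labels' processing notes also list GRCm39, HTSeq and DESeq2 without versions. The deposited FPKM values were made by the authors from these counts, and were proportional to count divided by gene length, with 1 factor per library, within a tolerance of 1%. Each comparison was fitted to the counts of its own groups with edgeR 4.0.16 (TMM scaling, filterByExpr, robust quasi-likelihood F test; R 4.3.3), with Benjamini-Hochberg adjustment over all tested genes, and a call needed an adjusted p under 0.05. The SE is the fold change divided by the root of F. DESeq2 1.42.0 was an alternative. Counts were also simulated with the means and spreads of male Day 0 and the library sizes of male Day 2 and Day 0. There edgeR called 87.0% of 200 well-counted genes changed by 2 on the log2 scale, and 9 unchanged ones. The spread within treated groups was not simulated, so this share does not measure power for the comparisons above.

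The members and gene lists were chosen with earlier results of these data known. The text names every member, up to 4 genes of each list with the highest mean FPKM, and the 3 protein-coding genes most correlated with each member, of which 1 is not reported here; Cdkn1a's values, Sis and the depth of single libraries were added where a result turned on them. Ppara, Nfe2l2 and Dgat1 fall outside that rule and were named after their values were seen. The aligner is not given in the sources used here. The 13 comparisons were 6 of days, 4 of sexes and 3 interactions, and libraries held 16502107 to 35961325 counts; each replicate was a mouse. Coding, promoter and transcript comparisons used the GENCODE M21 annotation and the RefSeq tables.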

Additional observations from a re-analysis of the deposited data

Results flagged for a closer look

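In 7 of 56 groups of 4 mice, 1 mouse lay far from the others, by Dixon's test on the gap to its nearest neighbour, which chance passes in about 1 of 20 groups. Female Day 0 mouse 2 was high in Ces1e (42.1 FPKM) and Ces1g (9.90 FPKM), and this library held hepatocyte transcripts. The library labelled male Day 5 mouse 1 was high in Ces1e (10.9 FPKM) and Ces2c (21.3 FPKM), and it was also the male Day 5 library with the most Xist and the highest summed level of the 15 proximal tubule markers without Kap. Female Day 3 mouse 2 was high in Ces1e (21.1 FPKM) and low in Ces2e (6.57 FPKM), with Cdkn1a at 6.14 FPKM and Alb at 112 FPKM. Male Day 0 mouse 4 was high in Ces2g (2.20 FPKM).

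The response of Ces1f at Day 5 differed between the sexes, with a male change minus female change of −3.39 on the log2 scale (adjusted p = 0.0210, edgeR).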

How the results depend on the processing

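Of 1377 alternative values for 82 tested results of single members, 1232 kept direction and side of the threshold, 66 lost a call, 48 gained one and 31 changed sign, none of these passing in either fit. Requiring at least 10 counts in every library left Ces1g untested wherever Day 5 males entered, so no value is given there. The causes below were not tested.

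Counts of members passing are given with the share of all genes called by the same rule in parentheses. Males at Day 3 had 1 (24.5%), and 0 with a log2 fold change over 1.5 also required (3.72%), without a filter (8.62%), with 1 fit over 8 groups (19.5%) or with the replicate block (0.566%). Males at Day 5 had 3 (19.2%), and 5 by DESeq2 (28.9%) or 1 fit (31.1%). Females at Day 2 had 0 (1.93%), and 2 by DESeq2 (13%) and 1 without a filter (3.41%) or with 1 fit (21.8%). Females at Day 3 had 2 (5.54%), and 1 with the fold required (2.48%), 0 with DESeq2 size factors (2.53%) or the replicate block (0%), and 4 by DESeq2 (22%) or 1 fit (23.4%). Females at Day 5 had 0 (0.258%), and 1 by DESeq2 (4.82%). Between sexes, Day 0 gave 1 (0.449%), and 2 by DESeq2 (2.78%), 1 fit (3.22%) or the replicate block (1.31%). Day 2 gave 3 (1.47%), and 1 with 1 fit (0.763%). Day 3 gave 4 (21.3%), and 2 with the fold required (1.93%) or 1 fit (0.988%). Day 5 gave 0 (0.276%), and 1 by DESeq2 (6.95%) or 1 fit (9.69%). The interaction at Day 5 gave 1 (0.243%), and 2 by DESeq2 (4.23%) or 1 fit (7.55%), and 4 (5.1%) without male Day 5 mouse 1 and female Day 0 mouse 2, an alternative chosen after seeing the data.

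Leaving out 1 mouse gave counts of 0 to 1 in males at Day 2 (0.079% to 14% of all genes) and at Day 3 (4.18% to 38.6%), 2 to 5 at Day 5 (5.38% to 26%), 0 to 3 in females at Day 2 (0.125% to 28.3%) and 0 to 5 at Day 3 (0% to 39.1%). Between sexes it gave 0 to 1 at Day 0 (0% to 0.495%), 1 to 3 at Day 2 (0.567% to 3.35%), 3 to 6 at Day 3 (11.1% to 34.6%) and 0 to 4 at Day 5 (0% to 17%), and for the Day 5 interaction 0 to 3 (0% to 6.74%). The Ces2e change in males at Day 5 ran from 0.64 to 1.89.

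Values of tested members that changed sign on leaving out 1 mouse ran as follows, on the log2 scale. In males at Day 2, Ces1d ran from −0.21 to 0.11 and Ces2c from −0.10 to 0.58. In females at Day 2, Ces1f ran from −0.29 to 0.21 and Ces1g from −1.20 to 0.48, and at Day 5 Ces1g from −0.75 to 0.49. Between sexes Ces1e ran from −0.055 to 0.16 at Day 0 and was −0.0073 without a filter, Ces1d from −0.13 to 0.27 at Day 2 and Ces2g from −0.58 to 0.19 at Day 5. For the interaction at Day 2, Ces1f ran from −0.37 to 0.063 and Ces2g from −0.29 to 0.45, with −0.091 under the replicate block. At Day 3 Ces1f ran from −0.17 to 0.27 and Ces2g from −0.19 to 0.54. The untested Ces2e difference at Day 2 ran from −0.89 to 0.18.

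Same-numbered mice did not deviate together in all 4 pairs of any of 10 comparisons, so the main fits did not pair them. Between sexes at Day 0, however, 3 of 4 pairs did, with r = 0.272, 0.444 and 0.481 for mice 1, 3 and 4. The rule asks for all 4 pairs, so it cannot show that same-numbered mice share nothing. Under the replicate block calls were lost for Ces1e in males at Day 3 (adjusted p = 0.109), Ces1d (0.143) and Ces1g (0.136) in females at Day 3 and Ces2c between sexes at Day 2 (0.107), and gained for Ces2c in males at Day 5 (0.0243) and between sexes at Day 0 (0.0175) and for Ces1e between sexes at Day 3 (0.0290). Over all genes DESeq2 called 21 to 5589 genes per comparison and edgeR 0 to 3901.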
